A study of Mus musculus with 30 samples.

Results

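Toll-like receptors (Tlr) were examined in cells sorted from the brains of PS2APP mice. The genes were 9 receptors, Tlr1, Tlr2, Tlr3, Tlr4, Tlr5, Tlr6, Tlr7, Tlr9 and Tlr13, and Myd88, the adaptor through which most of them signal. They were chosen by symbol, matched to the Entrez gene identifiers of the count tables, and made up 10 of the 36528 gene identifiers. No threshold on their values was part of that choice, but earlier results of these data were known when it was made.

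The PS2APP line, a model of amyloid deposition, has transgenes for mutant human presenilin 2 and mutant human amyloid precursor protein, with mutations known from familial Alzheimer's disease. At 11.5 months of age, Cd11b+ myeloid cells, Gfap+ astrocytes and NeuN+ neurons were sorted from PS2APP transgenic mice and from littermates without the transgenes. Each of the 6 groups of genotype and population held 5 libraries, 30 in all. No label ties a library to an animal, litter, sex or day, so the p-values measure the spread between libraries, part of which may be technical. Replicate numbers below name libraries within a group and pair none of them.

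Toll-like receptors recognise conserved molecules of microbes and, in some settings, molecules released from the host's own cells. Tlr1, Tlr2, Tlr4, Tlr5 and Tlr6 act at the cell surface on lipopeptides, lipopolysaccharide or flagellin, whereas Tlr3, Tlr7, Tlr9 and Tlr13 act in endosomes on RNA or DNA. Most pass the signal through Myd88 to NF-kB and interferon regulatory factors, Tlr3 signals through Ticam1, and in the brain microglia are regarded as the main cells that carry these receptors.

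Total counts ran from 2015535 to 6749681 per library. They were lower in PS2APP myeloid libraries (2015535 to 2908222) than in non-transgenic ones (3578249 to 6143018), and 3 counts corresponded to between 0.444 and 1.49 CPM (counts scaled to the library total). Mitochondrially encoded genes took 9.46 to 16.7% of the counts in PS2APP myeloid libraries and 5.46 to 12.7% in non-transgenic ones, 5.60 to 8.60% against 2.41 to 4.74% in astrocytes, and 1.29 to 1.98% against 0.669 to 1.55% in neurons. In each population 1 PS2APP library stood apart on the first principal component, namely myeloid replicate 4, astrocyte replicate 3 and neuron replicate 5. Values without these libraries are given below for several genes, but not for Tlr1, Tlr3 and Tlr4 in myeloid cells or Tlr4 and Myd88 in astrocytes. The 3 genes of the sort followed the labels: in non-transgenic libraries Itgam, which encodes Cd11b, averaged 1450 ± 177 CPM (SD, n = 5) in myeloid cells, Gfap 635 ± 156 CPM in astrocytes and Rbfox3, which encodes NeuN, 139 ± 32.8 CPM in neurons, against at most 16.9 CPM in each of the other two populations.

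The receptors were highest in myeloid cells, with 1 exception. Levels between genes were compared per length, as the RPKM that the authors deposited, which scale counts to gene length and library size factor. In non-transgenic myeloid libraries the order ran from Tlr7 at 13.5 ± 4.47 RPKM (SD, n = 5) through Tlr9 at 7.20 ± 1.32, Tlr13 at 6.81 ± 2.09, Myd88 at 6.39 ± 1.84, Tlr4 at 5.15 ± 0.777, Tlr3 at 4.23 ± 1.24, Tlr1 at 4.08 ± 1.19, Tlr5 at 3.57 ± 1.37 and Tlr6 at 2.53 ± 0.428 to Tlr2 at 2.19 ± 0.580. Neighbours in this order below Tlr7 differed by less than the larger of their 2 SDs. The endosomal receptors together made up 61.8 to 67.5% of the summed receptor RPKM of these libraries, and Tlr7 alone 22.5 to 32.7%.

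**Figure D1:**
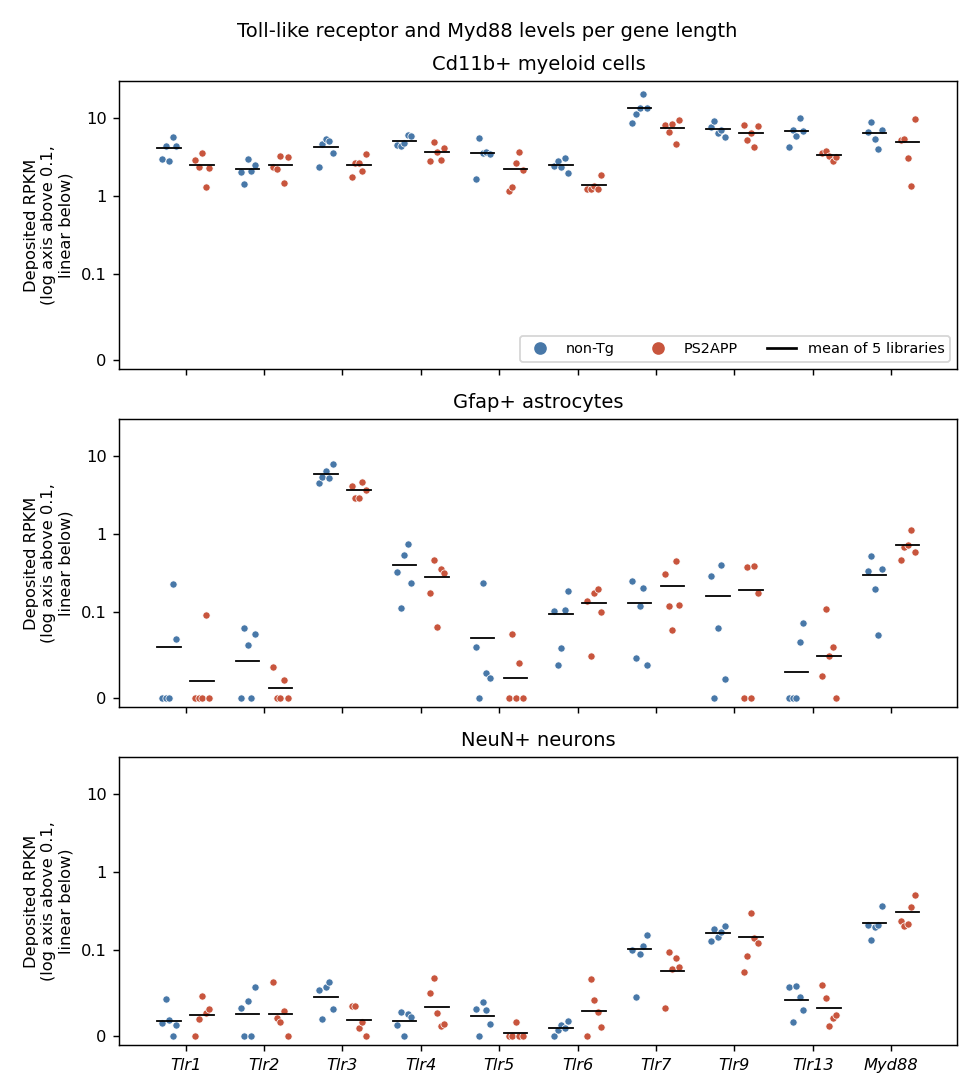
Deposited RPKM of the 9 receptors and Myd88 in each of the 30 libraries, 1 panel per sorted population; points are libraries, bars the mean of 5 libraries, and the axis is logarithmic above 0.1 RPKM and linear below. All genes sit above 1 RPKM in myeloid cells, Tlr3 is the gene above 2 RPKM in every astrocyte library, and neuron libraries reach at most 0.501 RPKM.

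Tlr3, the receptor of double-stranded RNA, was the exception. It stood at 5.91 ± 1.37 RPKM in non-transgenic astrocytes, 4.23 ± 1.24 in non-transgenic myeloid cells, 3.66 ± 0.766 in PS2APP astrocytes, 2.53 ± 0.639 in PS2APP myeloid cells, 0.0451 ± 0.0184 in non-transgenic neurons and 0.0192 ± 0.0157 in PS2APP neurons (SD, n = 5 each). The library ranges of each group overlapped that of the next among the 4 myeloid and astrocyte groups, and all 20 of those libraries lay above all 10 neuron libraries. Of the summed receptor RPKM, Tlr3 made up 74.4 to 95.1% in non-transgenic astrocytes and 6.49 to 11.4% in non-transgenic myeloid cells. Next in astrocytes came Tlr4, the lipopolysaccharide receptor, at 0.394 ± 0.255 RPKM, and Myd88 at 0.296 ± 0.169, and the other receptors averaged at most 0.159 RPKM in the non-transgenic group. Non-transgenic neurons held Myd88 at 0.223 ± 0.0874 RPKM, Tlr9 at 0.167 ± 0.0302 and Tlr7 at 0.101 ± 0.0390, and the remaining 7 genes averaged at most 0.0451 RPKM.

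In a fit of all 30 libraries, 9 of the 10 genes were higher in non-transgenic myeloid cells than in astrocytes (edgeR quasi-likelihood test, adjusted p of at most 0.05), where 26.8% of all genes tested were called higher and 57.4% called in either direction. The differences ran from 3.86 ± 0.37 (log2, SE) for Tlr4 to 7.81 ± 0.48 for Tlr13, and the median over the 10 genes was 5.69, against -0.11 over all genes tested (-0.28 with RLE scaling). Tlr3 differed by -0.31 ± 0.24 (edgeR adjusted p = 0.27), and by -0.49 ± 0.25 between the PS2APP groups (adjusted p = 0.090). All 10 genes were higher in myeloid cells than in neurons, where 34.1% of genes were called higher and 67.9% either way. Here the differences ran from 5.04 ± 0.46 for Myd88 to 8.13 ± 0.50 for Tlr4.

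Astrocytes exceeded non-transgenic neurons in 3 of the 10 genes, Tlr3 by 7.10 ± 0.35 (edgeR adjusted p = 4.9e-19), Tlr4 by 4.27 ± 0.52 (8.3e-09) and Tlr6 by 3.19 ± 0.58 (1.5e-05), where 26.9% of all genes were called higher and 51.7% either way. Tlr6 rests on 37 counts over the 5 astrocyte libraries and 5 over the neuron libraries. Between the PS2APP groups, 5 genes were higher in astrocytes, the same 3 with Tlr7 (1.63 ± 0.48, adjusted p = 0.0045) and Myd88 (1.29 ± 0.45, adjusted p = 0.017), where 25.5% of all genes were called higher. Several groups held few counts, such as 7 of Tlr5 over the non-transgenic neuron libraries, so the size of those differences depends on the prior count of the fit. Markers of microglia, scaled within each population, summed to 201 to 284 CPM in non-transgenic astrocyte libraries and 76.7 to 115 CPM in neuron ones. In PS2APP libraries they summed to 299 to 351 and 69.6 to 173 CPM. The part of microglial RNA in the differences between astrocytes and neurons was not tested.

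In myeloid cells, 3 receptors fell in PS2APP mice, Tlr13, Tlr7 and Tlr6, and none of the 10 genes rose. A fit of the 10 myeloid libraries tested 12274 genes, of which 1.50% were called lower, 1.86% higher and 3.36% in either direction (edgeR quasi-likelihood test on counts, Benjamini-Hochberg adjusted p of at most 0.05). All 10 genes were tested. The log2 fold change of 9 of the 10 was below 0 with TMM scaling, against 50.2% of all genes tested, and of 8 with the microglia scaling given further on, where Tlr9 lay at 0.10. With TMM scaling 7 of the 10 were lower at an unadjusted p under 0.05, against 9.30% of all. Their median log2 fold change was -0.76, and that of all genes tested was -0.0021. In bulk libraries fewer cells of a type and less RNA per cell cannot be told apart. Values below are CPM scaled by the trimmed mean of M-values (TMM) within the population, for replicates 1 to 5.

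**Figure D2:**
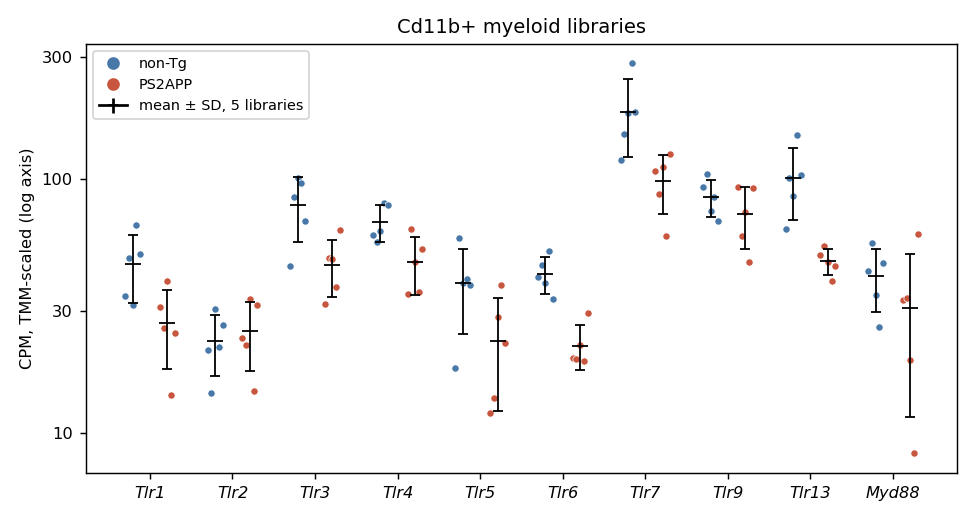
TMM-scaled CPM of the 10 genes in the 5 non-transgenic and 5 PS2APP myeloid libraries on a logarithmic axis; points are libraries, and the marks give mean ± SD. PS2APP libraries lie below every non-transgenic library for Tlr13 and Tlr6, and the groups overlap for the other 8 genes.

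Of the endosomal receptors, Tlr13 recognises bacterial ribosomal RNA. It stood at 63.1, 101, 85.8, 149 and 103 CPM in non-transgenic myeloid libraries and at 50.1, 54.4, 46.8, 39.5 and 45.4 CPM in PS2APP ones. All 5 PS2APP libraries lay below all 5 non-transgenic libraries, as 2.71% of the genes tested did, and they were closer to each other. Its log2 fold change was -1.09 ± 0.21 (SE, edgeR adjusted p = 0.0070), from 100.2 ± 31.3 CPM to 47.2 ± 5.57 CPM (SD, n = 5 each). The call held in all 10 fits that left out 1 library (adjusted p 0.0015 to 0.038), and was -1.03 (0.018) without PS2APP replicate 4.

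Tlr13 lies at chrX:106143275-106160493 (RefSeq, GRCm38.p6). The stretch before its RefSeq start site, on the plus strand at chrX:106143025-106143203, is shown because the gene changed most among the 10; the bases closest to the start are left out where an annotated exon covers them. It is given without capitals, since none of 4 motifs searched on both strands of the window from 250 bases before to 50 bases after the start was found in it.
Tlr13: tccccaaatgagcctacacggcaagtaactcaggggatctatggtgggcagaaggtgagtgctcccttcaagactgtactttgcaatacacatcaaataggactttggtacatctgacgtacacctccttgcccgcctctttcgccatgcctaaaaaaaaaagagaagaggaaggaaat
The motifs were an ETS motif (AGGAAGT), an ETS-IRF composite (GGAA, any 2 bases, GAAA), an interferon-response motif (GAAA, any 2 bases, GAAA) and the NF-kB motif, which 9.35%, 2.72%, 3.44% and 8.46% of 32851 RefSeq promoters held. RefSeq promoter entries were matched for 8 of the 10 genes, not for Tlr4 and Tlr7, and held 10 windows, of which 4, 0, 2 and 2 carried the respective motif. A match describes letters in the window and is no evidence of binding.

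Tlr7, a receptor of single-stranded RNA, stood at 118, 150.4, 181, 284 and 184 CPM in non-transgenic libraries and at 108, 87.2, 111, 59.2 and 125 CPM in PS2APP ones. It was the receptor with the highest RPKM in both groups, and 4 of 5 PS2APP libraries lay below all non-transgenic ones, with replicate 5 above the lowest of them. Its log2 fold change was -0.90 ± 0.22 (edgeR adjusted p = 0.027). The call was lost without PS2APP replicate 2, 3 or 4 or non-transgenic replicate 3, 4 or 5 (log2 fold change -1.02 to -0.69 over 10 fits, adjusted p up to 0.11), and was -0.77 (0.066) without PS2APP replicate 4.

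Tlr3 stood at 45.1, 84.6, 101, 96.5 and 68.2 CPM in non-transgenic myeloid libraries and at 32.0, 48.6, 48.3, 37.6 and 62.6 CPM in PS2APP ones. Non-transgenic replicate 1 lay among the PS2APP values, and the other 4 lay above them all. With a log2 fold change of -0.78 ± 0.23 it did not pass (edgeR adjusted p = 0.061), and passed without that library (-0.93, 0.017) and by DESeq2 (adjusted p = 0.043). Of the 50-base windows of its exons 5.30% occur in Gm45542, an antisense gene, whose reads cannot be told apart from those of Tlr3 where the counting did not use strand.

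For Tlr9, which recognises unmethylated CpG DNA, the groups overlapped widely. It stood at 92.7, 104, 74.7, 84.5 and 68.0 CPM in non-transgenic libraries and at 92.6, 59.2, 73.7, 47.1 and 91.5 CPM in PS2APP ones. On the log2 scale it differed by -0.21 ± 0.20 (edgeR adjusted p = 0.60), and by -0.093 without PS2APP replicate 4. Its share of the summed receptor RPKM was 11.1 to 21.2% in non-transgenic and 17.0 to 25.4% in PS2APP libraries, while that of Tlr13 was 11.6 to 15.7% and 8.44 to 12.6%.

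At the cell surface, Tlr6 pairs with Tlr2 to recognise diacylated lipopeptides, and Tlr1 pairs with Tlr2 to recognise triacylated ones. Tlr6 stood at 40.9, 45.7, 38.7, 51.9 and 33.5 CPM in non-transgenic myeloid libraries and at 19.7, 19.6, 22.0, 19.1 and 29.6 CPM in PS2APP ones. The groups did not overlap, and PS2APP replicate 5 came nearest to the non-transgenic range. Its log2 fold change was -0.93 ± 0.25 (edgeR adjusted p = 0.038), from 42.1 ± 7.01 to 22.0 ± 4.41 CPM. This call held in 2 of 10 fits that left out 1 library, those without non-transgenic replicate 1 and without PS2APP replicate 5. Leaving out any of the other 8 ended it (log2 fold change -1.06 to -0.85 over the 10 fits, adjusted p up to 0.13), and the value was -0.89 (0.073) without PS2APP replicate 4.

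Tlr1 stood at 34.5, 48.6, 31.8, 65.7 and 50.4 CPM in non-transgenic libraries and at 31.2, 25.9, 39.5, 14.0 and 24.7 CPM in PS2APP ones. PS2APP replicate 3 lay within the non-transgenic range and the other 4 below it. At -0.76 ± 0.28 its log2 fold change did not pass (edgeR adjusted p = 0.13). Tlr1 and Tlr6 are neighbours on chromosome 5, at chr5:64924680-64933600 and chr5:64953092-64970942 (RefSeq, GRCm38.p6), and parts of their coding sequences are identical. Of all 50-base windows of their annotated exons, 15.4% for Tlr1 and 12.3% for Tlr6 occur in another gene as well. Per the file headers the authors counted reads that align uniquely to a gene model, so reads lying wholly in such stretches may be missing from both genes, and the split between them is uncertain. Tlr6 also overlaps Fam114a1 and Mir574, and the counting is not stated to use strand. The longest identical run, of 229 bases (coding bases 1468 to 1696 of 2385 in Tlr1, chr5:64925537-64925765, minus strand, GENCODE M21), is shown because a read inside it cannot be assigned to 1 gene by sequence. It has no capitals since every base is shared.
Tlr1 and Tlr6: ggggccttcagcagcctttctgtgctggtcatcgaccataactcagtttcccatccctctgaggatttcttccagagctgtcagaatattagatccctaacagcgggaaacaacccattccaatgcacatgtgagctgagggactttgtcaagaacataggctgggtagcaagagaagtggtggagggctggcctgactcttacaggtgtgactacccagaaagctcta

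Tlr6 also carried motifs in a window before 1 of its RefSeq start sites. The stretch at chr5:64959167-64959416 (minus strand, GRCm38.p6, inside the annotated span of the gene) is shown with 2 overlapping matches to the interferon-response motif and 1 match to AGGAAGT in capitals, all read on the opposite strand.
Tlr6: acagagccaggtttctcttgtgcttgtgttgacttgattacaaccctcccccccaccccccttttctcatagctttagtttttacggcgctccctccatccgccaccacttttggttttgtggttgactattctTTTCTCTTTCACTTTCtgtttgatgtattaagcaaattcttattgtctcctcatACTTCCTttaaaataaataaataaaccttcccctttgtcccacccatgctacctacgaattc
Myd88 was the other gene with a match to the interferon-response motif. AGGAAGT was also found in another window of Tlr6 and in windows of Tlr1 and Tlr9. A link between motifs and the change in level was not tested.

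Tlr2, the shared partner of Tlr1 and Tlr6, was the 1 gene of the 10 whose log2 fold change lay above 0 in myeloid cells. It stood at 21.2, 14.3, 30.6, 21.8 and 26.4 CPM in non-transgenic libraries and at 23.5, 22.2, 33.5, 14.6 and 31.9 CPM in PS2APP ones. The ranges overlapped, with 2 PS2APP libraries above all non-transgenic ones, and the log2 fold change was 0.15 ± 0.30 (edgeR adjusted p = 0.83), or 0.29 without PS2APP replicate 4. Its share of the summed receptor RPKM was 2.78 to 6.22% in non-transgenic and 6.09 to 9.33% in PS2APP libraries. The stretch before its RefSeq start, at chr3:83841768-83841858 on the minus strand, is shown beside those of Tlr13 and Tlr6 (no entry was matched for Tlr7), with the NF-kB motif in capitals, where overlapping matches on both strands coincide. A further match, from position -8 to 1 counted from the start site, lies outside the stretch shown.
Tlr2: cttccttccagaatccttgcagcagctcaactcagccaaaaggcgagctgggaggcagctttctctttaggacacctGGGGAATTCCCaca
Tlr3 was the other gene whose window held the NF-kB motif.

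Tlr4 stood at 60.1, 56.5, 62.1, 80.1 and 78.7 CPM in non-transgenic myeloid libraries and at 35.1, 63.4, 46.8, 35.6 and 52.9 CPM in PS2APP ones. PS2APP replicate 2 lay inside the non-transgenic range and the other 4 below it, and the log2 fold change of -0.53 ± 0.21 did not pass (edgeR adjusted p = 0.16). Tlr5, the flagellin receptor, stood at 18.0, 58.3, 38.7, 40.4 and 38.0 CPM in non-transgenic libraries and at 11.96, 13.7, 28.5, 38.2 and 22.5 CPM in PS2APP ones. Its lowest non-transgenic library, replicate 1, lay among the PS2APP values, and PS2APP replicate 4 also lay just above non-transgenic replicate 5. The log2 fold change was -0.76 ± 0.33 (edgeR adjusted p = 0.20), and -1.01 (0.12) without PS2APP replicate 4.

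The adaptor Myd88 varied most of the 10 genes among PS2APP myeloid libraries, relative to its mean. It stood at 43.1, 56.0, 34.8, 26.0 and 46.5 CPM in non-transgenic libraries and at 33.2, 33.8, 19.4, 8.28 and 60.3 CPM in PS2APP ones, where replicate 4 was the lowest and replicate 5 the highest of all 10. The log2 fold change was -0.40 ± 0.34 (edgeR adjusted p = 0.56), -0.17 without PS2APP replicate 4 and -0.79 without PS2APP replicate 5. Of the 50-base windows of Myd88 exons 7.42% occur in Acaa1a as well, so reads inside them cannot be assigned to 1 gene by sequence.

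Calls on the 3 receptors depended on what else the fit held. With the share of counts in mitochondrially encoded genes as a covariate, none of the 10 genes and 26 of all genes were called, and the log2 fold changes were -0.86 (edgeR adjusted p = 0.29) for Tlr13, -0.61 (0.45) for Tlr7 and -0.70 (0.49) for Tlr6. With the summed CPM of markers of other cell types as a covariate, none of the 10 and 52 of all genes were called, with -1.15 (0.077), -0.79 (0.21) and -0.69 (0.37). In both fits 8 of the 10 genes had a log2 fold change below 0. The mitochondrial share ran higher in PS2APP myeloid libraries (9.46 to 16.7% against 5.46 to 12.7%), as did the summed oligodendrocyte markers given below. A covariate that follows genotype cannot be fully told apart from it. In the fit of all 30 libraries Tlr13 (-1.17, 0.029) and Tlr3 (-0.86, 0.037) were called, and Tlr7 (0.051) and Tlr6 (0.073) were not. By DESeq2 Tlr13, Tlr7, Tlr6 and Tlr3 were called (adjusted p 0.00033, 0.0098, 0.0047 and 0.043), as were 3.05% of 27468 genes. That total was not filtered on low counts, so the share is not on the same base as those of edgeR.

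**Figure D3:**
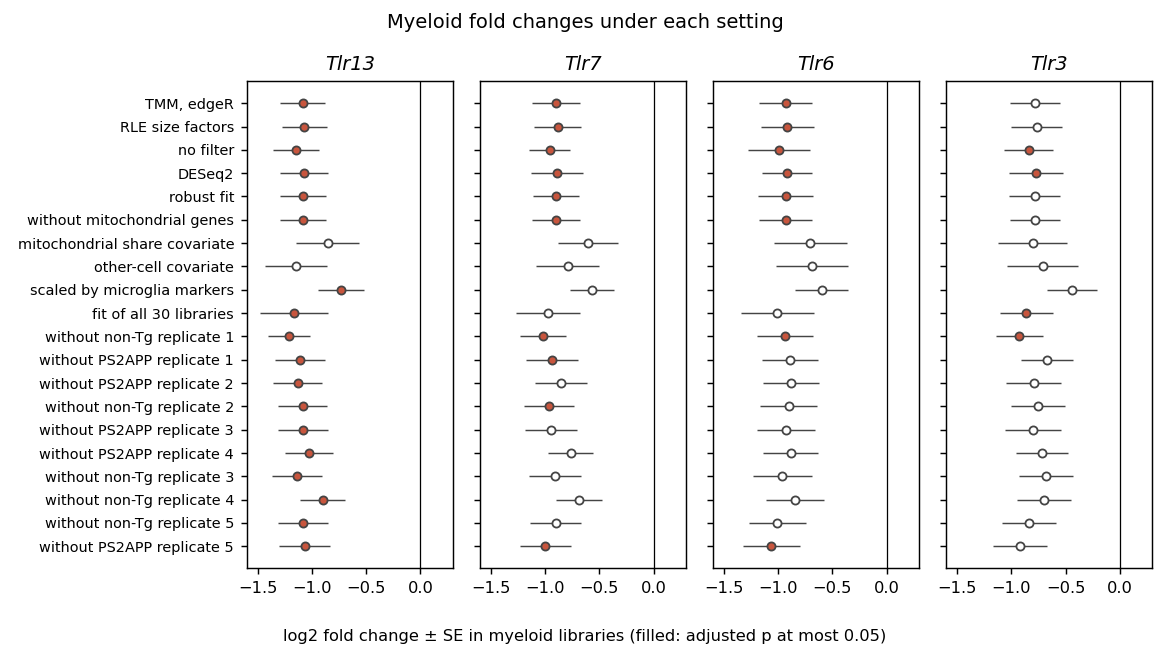
Log2 fold change ± SE of Tlr13, Tlr7, Tlr6 and Tlr3 in PS2APP against non-transgenic myeloid cells under 20 settings of the fit; filled points passed an adjusted p of 0.05. Every value lies below 0, Tlr13 loses its call under the 2 covariates alone, and Tlr7 and Tlr6 lose theirs under most fits that leave out a library.

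Cell type markers moved with genotype in the same libraries. The 11 microglia markers summed to 10541 to 12225 CPM in non-transgenic and 7777 to 10144 CPM in PS2APP myeloid libraries. All 11 had a log2 fold change below 0, with a median of -0.39, and Tmem119 (-0.71 ± 0.19), Cx3cr1 (-0.58 ± 0.15) and Sparc (-0.65 ± 0.16) passed (edgeR adjusted p = 0.041, 0.032 and 0.029; these and the other markers named here were picked for passing). With libraries scaled by that sum instead, the median of all genes moved to 0.34, 1434 genes were called higher and 42 lower against 228 and 184 with TMM, Tlr13 was still called (-0.73, edgeR adjusted p = 0.027), and Tlr7 (-0.57, 0.073) and Tlr6 (-0.60, 0.11) were not. The 8 oligodendrocyte markers summed to 653 to 1045 CPM in non-transgenic and 1118 to 1829 CPM in PS2APP libraries, where Mbp (0.84 ± 0.20) and Mobp (0.90 ± 0.20) passed. The 11 neuron markers summed to 165 to 243 and 174 to 366 CPM and the 7 endothelial ones to 31.0 to 44.9 and 35.7 to 67.1 CPM. Of the 3 endothelial markers tested Flt1 passed upward (1.78 ± 0.42), while Pecam1 (-0.08 ± 0.39) and Cdh5 (-1.16 ± 0.63) lay below 0 and did not pass. The 9 astrocyte markers summed to 478 to 947 and 607 to 933 CPM, where Gfap passed upward (2.77 ± 0.25) and Aqp4 downward (-1.64 ± 0.41).

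Other leukocytes that carry Toll-like receptors were measured in the same way. Neutrophil markers summed to 95.6 to 1283 CPM in non-transgenic and 26.2 to 860 CPM in PS2APP myeloid libraries, with 7 of 7 tested below 0 and none called by edgeR, nor at an unadjusted p under 0.05. Monocyte markers summed to 39.2 to 67.0 and 19.1 to 40.2 CPM, with 3 of 3 tested below 0 and Ccr2 called (-2.16 ± 0.41, edgeR adjusted p = 0.0067). Chil3 (-1.72 ± 0.71) and Vcan (-0.19 ± 0.29) were not called. The same markers summed to 128 to 229 CPM in non-transgenic astrocyte libraries, where Vcan alone passed the filter. Their sum is therefore not particular to monocytes. Border macrophage markers summed to 42.4 to 195 CPM in non-transgenic and 38.2 to 89.3 CPM in PS2APP myeloid libraries. The part of these cells, of the mitochondrial share and of depth in the receptor values was not tested beyond the fits given above.

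In astrocytes none of the 10 genes was called. The fit tested 14043 genes, of which 26 were called, all higher (0.185%), and Tlr3, Tlr4 and Myd88 alone passed its filter on low counts. At an unadjusted p under 0.05 edgeR gave 2 of the 3, Tlr3 lower and Myd88 higher, and 17.2% of all genes tested. DESeq2 called none of the 10 and 1.16% of 28561 genes, a total not filtered on low counts. Each of the other 7 receptors held at most 30 counts in any astrocyte library.

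Astrocyte Tlr3 stood at 68.3, 82.5, 101, 79.3 and 122 CPM in non-transgenic libraries and at 64.5, 44.8, 46.8, 71.4 and 56.8 CPM in PS2APP ones. PS2APP replicate 4 lay above the lowest non-transgenic library and the other 4 lay below all of them. The log2 fold change was -0.67 ± 0.20 (unadjusted p = 0.0036, edgeR adjusted p = 0.15), from 90.5 ± 21.1 to 56.9 ± 11.4 CPM (SD, n = 5 each), and -0.60 (0.25) without PS2APP replicate 3. With the mitochondrial share as a covariate it was 0.15, and with the markers of other cells -0.34. The mitochondrial share did not overlap between the genotypes in astrocytes (5.60 to 8.60% against 2.41 to 4.74%), so the fit cannot tell its part from that of genotype. The 9 astrocyte markers summed to 8930 to 15559 CPM in non-transgenic and 7481 to 10402 CPM in PS2APP astrocyte libraries. Their log2 fold changes lay below 0 for 6 and above 0 for 3, with a median of -0.43 and none called by edgeR. Their part in the Tlr3 values was not tested.

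Myd88 in astrocytes stood at 1.74, 2.75, 1.07, 0.390 and 1.89 CPM in non-transgenic libraries and at 2.50, 3.68, 3.95, 5.89 and 3.10 CPM in PS2APP ones, or 3 to 16 and 8 to 33 counts. All but PS2APP replicate 1 lay above every non-transgenic library, and the log2 fold change was 1.29 ± 0.55 (unadjusted p = 0.030, edgeR adjusted p = 0.24). Microglia markers summed to 201 to 284 CPM in non-transgenic and 299 to 351 CPM in PS2APP astrocyte libraries, without overlap. Of the 10 tested, 9 had a log2 fold change above 0, and Csf1r (1.50 ± 0.25) and Fcrls (2.98 ± 0.56) passed (edgeR adjusted p = 0.015 and 0.031). Their part in the Myd88 values was not tested. Tlr4 in astrocytes stood at 3.48, 1.20, 5.88, 8.06 and 2.51 CPM in non-transgenic libraries and at 1.88, 5.02, 0.911, 3.75 and 3.45 CPM in PS2APP ones, which overlapped, and its log2 fold change was -0.49 ± 0.57 (edgeR adjusted p = 0.69).

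**Figure D4:**
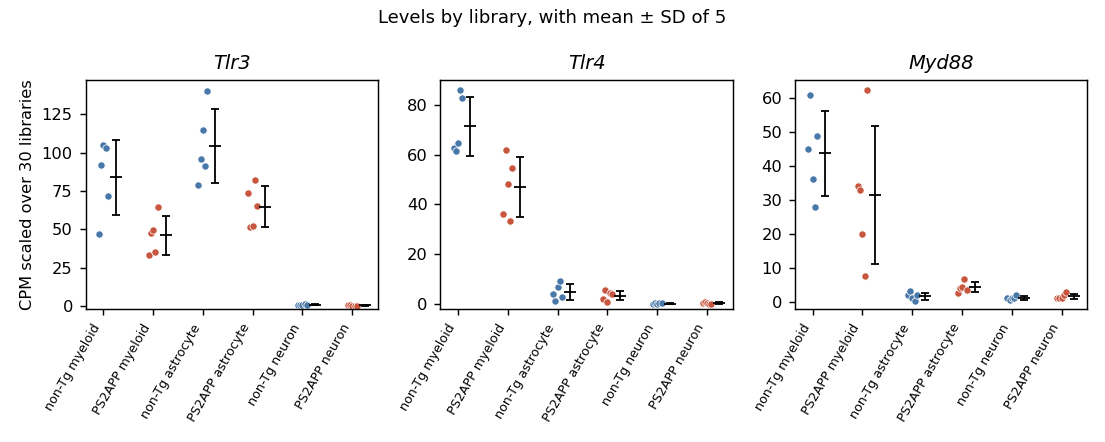
CPM of Tlr3, Tlr4 and Myd88, scaled over all 30 libraries, in the 6 groups; points are libraries, and the marks give mean ± SD of 5. Tlr3 averages 104 CPM in non-transgenic astrocytes and 83.8 CPM in non-transgenic myeloid cells and is lower on average in PS2APP mice in both, whereas Tlr4 and Myd88 are highest in myeloid cells.

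Neurons held few counts of any of the genes. The fit tested 16064 genes and called 1 (0.00623%), and of the 10 genes Tlr9 alone passed the filter. Tlr9 stood at 1.66, 2.43, 1.80, 2.18 and 2.61 CPM in non-transgenic neuron libraries and at 0.938, 1.18, 3.80, 1.80 and 1.60 CPM in PS2APP ones, or 8 to 18 and 4 to 20 counts. Its log2 fold change was -0.18 ± 0.35 (edgeR adjusted p = 0.76), and -0.12 without PS2APP replicate 5. No gene of the 10 reached an unadjusted p under 0.05 in this fit, and DESeq2 called none. Changes in the other 9 were not detectable at this depth.

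A difference in the PS2APP effect between populations was not called for any of the 10 genes. In the test of myeloid against astrocyte effects, 0.757% of 18101 genes were called. An unadjusted p under 0.05 was reached by 4 of the 10, each with the lower value in myeloid cells, against 8.04% of all genes in that direction and 2350 of the 18101 in either. They were Tlr13 (-1.76 ± 0.79, edgeR adjusted p = 0.33), Tlr7 (-1.74 ± 0.54, 0.13), Tlr6 (-1.48 ± 0.56, 0.23) and Myd88 (-1.77 ± 0.60, 0.16). These rest on few astrocyte counts, for Tlr13 on 11 over each group of 5 libraries. Tlr13, Tlr7 and Tlr6 did not pass the filter of the astrocyte fit and entered this fit with their myeloid counts. Microglia markers summed higher in PS2APP than in non-transgenic astrocyte libraries (299 to 351 against 201 to 284 CPM), and their part in these differences was not tested. For Tlr3, the receptor with many counts in both, the difference was -0.18 ± 0.34 (adjusted p = 0.88). Against neurons 0.105% of genes were called. Tlr6 alone of the 10 reached an unadjusted p under 0.05 (-2.46 ± 0.76, edgeR adjusted p = 0.27), on 5 and 13 counts over the non-transgenic and PS2APP neuron libraries, and this 1 of 10 is near the 9.65% of all genes at that level. Tlr6 had not passed the filter of the neuron fit. For astrocytes against neurons 0.0331% of genes were called, and 4.97% of genes and none of the 10 reached an unadjusted p under 0.05. DESeq2 called none of the 10 in any of these tests.

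Of 56 other pathway genes tested in myeloid cells 4 were called, against 3.36% of all genes tested, Peli1 lower and Irf3, Ccl3 and Ccl4 higher. Tlr12, the 1 other receptor tested in myeloid cells, went from 26.2 ± 6.67 to 13.6 ± 4.54 CPM and did not pass (-0.94 ± 0.32, edgeR adjusted p = 0.0997; DESeq2 adjusted p = 0.047). Of 10 co-receptors and chaperones 8 were tested and none was called by edgeR, nor at an unadjusted p under 0.05, with a median of 0.17. The log2 fold change lay above 0 for 6 of the 8 and below 0 for the 2 of smallest p. These 2 were Ly96, the partner of Tlr4 in lipopolysaccharide binding (-1.13 ± 0.60, edgeR adjusted p = 0.31), and Cd180 (-0.32 ± 0.18, 0.34). All 6 further adaptors were tested and none was called, with a median of 0.08 and 1 of the 6 at an unadjusted p under 0.05, where 19.3% of all genes tested stood. DESeq2 called none of these adaptors or co-receptors. Ticam1, the adaptor of Tlr3, was at 0.50 ± 0.20 on that scale (edgeR adjusted p = 0.17), and Pik3ap1 at 0.14 ± 0.14 (0.63).

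Downstream, 1 of 16 kinases and ubiquitin ligases, Peli1, fell by edgeR and none rose, where 3.36% of all genes tested were called. The median was -0.11. By edgeR, 3 lower and 3 higher of the 16 reached an unadjusted p under 0.05, against 19.3% of all genes tested. DESeq2 called 5 of the 16, against 3.05% of 27468 genes, a total that includes genes of few or no counts in most libraries. The 5 were Peli1 and Tab2 lower and Irak2, Traf3 and Ikbkb higher, the last 2 and Tab2 named because they passed there. Peli1, a ubiquitin ligase of Irak proteins, went from 56.7 ± 20.5 to 23.6 ± 6.04 CPM (-1.26 ± 0.28, edgeR adjusted p = 0.019), a call that ended without non-transgenic replicate 3 or 4 (adjusted p up to 0.082), and under the mitochondrial and marker covariates (0.27 and 0.19). Irak2, a kinase of the Myd88 complex, went from 155.8 ± 17.5 to 226 ± 36.8 CPM (0.53 ± 0.15, edgeR adjusted p = 0.057). Of the 8 NF-kB and interferon regulatory factors 1 rose, and their median was 0.39. At an unadjusted p under 0.05 edgeR gave 2 of the 8, each higher, against the same 19.3%. Irf3, which induces type I interferon, went from 73.2 ± 12.03 to 123 ± 31.9 CPM (0.74 ± 0.19, edgeR adjusted p = 0.035). That call held in 4 of 10 fits that left out 1 library and ended without non-transgenic replicate 3, 4 or 5 or PS2APP replicate 1, 4 or 5 (adjusted p up to 0.11). It also ended under the mitochondrial and marker covariates (0.25 and 0.20) and in the fit of all 30 libraries (0.082). Nfkb2 stood next by p, with 0.46 ± 0.22 (edgeR adjusted p = 0.26).

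**Figure D5:**
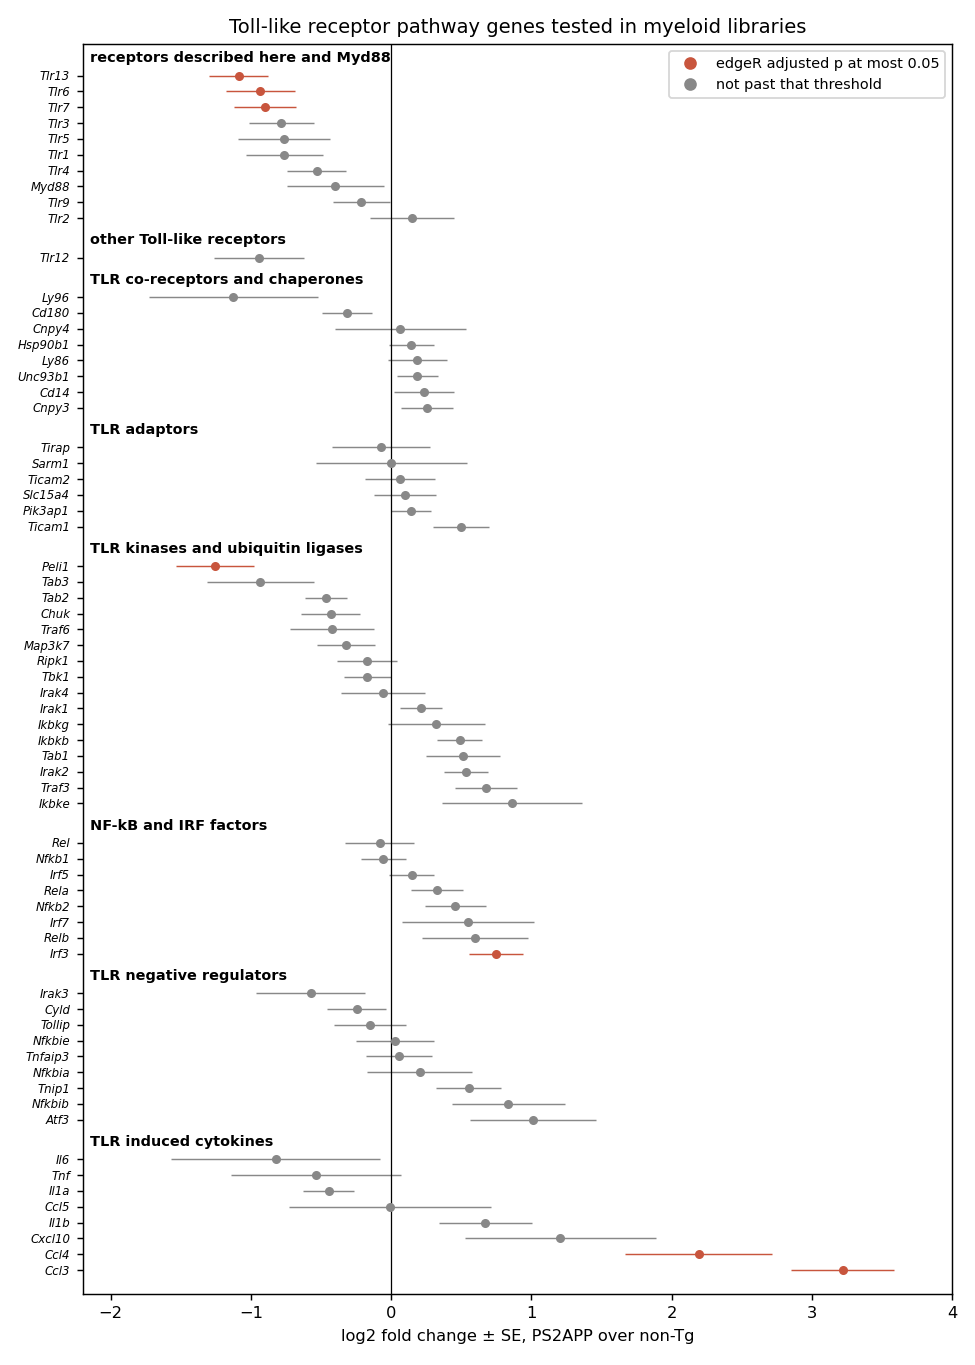
Log2 fold change ± SE in PS2APP against non-transgenic myeloid cells for every receptor and pathway gene tested, grouped by role; red marks an edgeR adjusted p of at most 0.05. With TMM scaling the receptors lie below 0 except Tlr2, and the other groups scatter on both sides.

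Of 13 cytokines and enzymes that these receptors can induce, 8 were tested and 2 rose, with a median of 0.33. By edgeR 1 of the 8 was lower and 2 were higher at an unadjusted p under 0.05, where 19.3% of all genes tested stood. The chemokine Ccl3 went from 2.94 ± 0.708 to 27.6 ± 6.28 CPM (SD, n = 5 each), 41 to 100 counts against 10 to 23, and was called in all 10 fits that left out 1 library, under both covariates and in the fit of all 30 libraries. Ccl4, its neighbour and close relative, went from 3.36 ± 1.74 to 15.6 ± 9.73 CPM (2.19 ± 0.52, edgeR adjusted p = 0.025). The Ccl4 call held in 5 of 10 such fits and ended without non-transgenic replicate 2, 3 or 5 or PS2APP replicate 2 or 5 (adjusted p up to 0.072). Under both covariates (0.39 and 0.42) and in the fit of all 30 libraries (0.056) Ccl4 was not called. Of 11 negative regulators 9 were tested and none was called, with none by DESeq2 and a median of 0.05. An unadjusted p under 0.05 was reached by 2 of the 9, near the 19.3% of all genes tested. These were Tnip1 (0.55 ± 0.23, edgeR adjusted p = 0.19) and Atf3 (1.01 ± 0.45, 0.22). In astrocytes and in neurons 42 genes of these lists were tested and none was called by edgeR, with 10 and 9 at an unadjusted p under 0.05, where 17.2% and 22.9% of all genes tested reached it. DESeq2 called Pik3ap1 in astrocytes, named because it passed there (2.37 ± 0.64, adjusted p = 0.021), and none in neurons.

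Patterns over the 6 groups were compared for Tlr7, the receptor of highest RPKM in myeloid cells, and Tlr13, the one of smallest p. Likeness was the root mean square difference of mean log2 CPM (0.5 CPM added), each gene centred on its mean over the 6 groups, among 14220 genes. Nearest to Tlr7 were Abca9 (0.21), F11r (0.21) and Gm1966 (0.23), and nearest to Tlr13 were Rhoh (0.16), F11r (0.18) and Siglece (0.23). F11r was near to both, with mean log2 CPM of 7.72 and 6.84 in non-transgenic and PS2APP myeloid cells, against 7.54 and 6.58 for Tlr7 and 6.68 and 5.57 for Tlr13.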

How the data were processed

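The 30 libraries were made from total RNA of sorted mouse brain cells. GSNAP and GRCm38 are named for alignment in the submitters' processing notes, while for version, annotation and strand nothing is given in the sources used here. Per the file headers, the authors deposited counts of reads aligned uniquely to a gene model and size-factor-adjusted RPKM, both per Entrez gene. On 8262 genes the deposited RPKM were the counts times 1 factor per library over gene length. Symbols matched 31049 of 36528 identifiers (96.7% of counts).

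The counts were tested with edgeR 4.0.16 in R 4.3.3 (filterByExpr, TMM, glmQLFit, glmQLFTest, Benjamini-Hochberg over all genes tested, threshold 0.05), within each population for genotype and over all 30 libraries for differences between populations. Scripts were tested on simulated data. Alternatives were RLE size factors, no filter, DESeq2 1.42.0, a robust fit, mitochondrial genes left out, 2 covariates, the fit of all libraries, each library left out, and scaling by microglia markers, which was added after seeing the data. Standard errors are the log2 fold change over the root of the F statistic. No 2 libraries of a group differed by as little as sampling noise (smallest chi-square per degree of freedom 3.71). Total counts of 2015535 to 6749681 limit genes of a few counts.

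The text names all 10 genes; of the 7 other lists, genes with an adjusted p of at most 0.05 in a population and otherwise the 2 of smallest p in myeloid cells; and the 3 nearest genes in pattern. The members and lists were chosen with earlier results of these data known. Promoters are from RefSeq (GRCm38.p6), and exons from GENCODE M21. The result of 1 further marker list is not reported here.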

Additional observations from a re-analysis of the deposited data

Results flagged for a closer look

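Tlr6 in PS2APP myeloid replicate 5 stood at 29.6 CPM, apart from the other 4 libraries of its group at 19.1 to 22.0 CPM, with a gap to the nearest that was 0.719 of the whole range of the group. Such a gap was looked for in 28 combinations of gene and group, and chance gives one in about 1 in 20 groups. Without that library the log2 fold change of Tlr6 was -1.06 and stayed past the threshold (edgeR adjusted p = 0.037).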

How the results depend on the processing

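No paired analysis was possible because the labels give no replicate numbers and do not tie libraries to animals. Of the single-gene values under alternatives, 666 kept their direction and side of the threshold, among them genes not called with all libraries. The call was lost by 24, all for Tlr13, Tlr7 or Tlr6 in myeloid cells. A further 4 gained a call and 5 changed sign. Those 5 were Tlr9 in myeloid cells (0.17 with the mitochondrial share, 0.16 with markers of other cells, 0.10 with microglia scaling), Tlr9 in neurons (0.0052) and Tlr3 in astrocytes (0.15), the last 2 with the mitochondrial share. The cause was not tested.

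Of the 10 genes, 3 were called in myeloid cells with all libraries, 1 to 4 when 1 library was left out, 0 under each covariate and 1 with microglia scaling. Over all genes, calls in myeloid cells (412) were 105 to 652 without 1 library, 939 without the filter, 839 by DESeq2, 26 and 52 under the mitochondrial and marker covariates, 798 in the fit of all libraries and 1476 with microglia scaling. Those in astrocytes (26) were 8 to 125, 514, 331, 2, 3 and 295 under the same settings, and those in neurons (1) 1 to 11 without 1 library, 15 without the filter, 148 by DESeq2, 3 with the marker covariate and 5 in the fit of all libraries. Calls of a differing effect were 213 without the filter and 373 by DESeq2 for myeloid against astrocyte (137), 82 by DESeq2 and 12 to 27 without 1 library for myeloid against neuron (19), and 17 and 1 to 11 for astrocyte against neuron (6). In PS2APP groups 5 of the 10 genes were higher in astrocytes than neurons. Covariates and left-out libraries leave fewer degrees of freedom. The mitochondrial share did not overlap between genotypes in astrocytes. Nor did the summed oligodendrocyte markers, part of the marker covariate, in myeloid cells. Where a covariate follows genotype, the fit cannot tell them apart.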
